A study of Mus musculus with 9 samples.

Results

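In αTC1 cells, 227 genes without a single count in any of the 5 DMSO libraries had counts in each of the 4 libraries of cells given EPZ011989. They were picked from the 33212 rows of the deposited count table by that rule alone: 241 rows met it (0.726% of all rows), and 14 of these, from families such as the Hox, collagen and Wnt genes plus Sst and Vip, were left out by symbol. The rule used the contrast between the groups, so the absence of counts in DMSO and their presence with EPZ011989 is a definition, not a finding. All values of DMSO libraries below are therefore 0 for these genes, and no test of EPZ011989 against DMSO is used as support for them.

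The αTC1 line is a glucagon-producing mouse line derived from a pancreatic alpha cell tumour. One group (n = 5) received the solvent DMSO for 7 days, and the other (n = 4) 4 µM EPZ011989 for 7 days, both in low-glucose medium with serum. RNA with a poly-A tail was captured from total RNA and sequenced. The labels call the libraries biological replicates and do not say whether they were separate cultures. A fragment appears to add about 4 counts, which was taken from the values and is not stated in the labels. The alpha cell markers Gcg, Irx1, Irx2, Ttr, Slc7a2 and Pcsk2 summed to 23500 to 25700 CPM (counts relative to library size) in DMSO libraries and 19700 to 26300 CPM with EPZ011989, and none of the 6 was at 0.

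EPZ011989 inhibits EZH2, the enzyme subunit of Polycomb repressive complex PRC2. PRC2 methylates lysine 27 of histone H3, and genes with this mark, many of them regulators and signalling genes of other lineages, stay silent in cells that do not use them. Promoters bound by PRC2 in mammalian cells are often rich in CpG dinucleotides, the sites at which cytosine can be methylated. The study's title places the experiment in work on the formation of beta cells from alpha cells.

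The promoters of 6 of the most strongly detected named genes are printed, the first 6 by lowest-library level for which a promoter was found. For Zfp423, Adcyap1 and Fbln1, 2 starts are on record and the first is shown. Each runs 5′ to 3′ on the gene's strand, from 250 bases before to 50 bases after the start, from RefSeq on GRCm38.p6, with every CpG in capitals. They belong to Slc1a1 (chr19:28834885-28835184, plus strand), a glutamate and cysteine transporter, Zfp423 (chr8:87959546-87959845, minus strand), a zinc finger transcription factor, Hapln3 (chr7:79130969-79131268, minus strand), a link protein between hyaluronan and proteoglycans, Adcyap1 (chr17:93198767-93199066, plus strand), the neuropeptide PACAP, Fbln1 (chr15:85205699-85205998, plus strand), the matrix protein fibulin-1, and Fam115c (chr6:42644992-42645291, minus strand).
Slc1a1: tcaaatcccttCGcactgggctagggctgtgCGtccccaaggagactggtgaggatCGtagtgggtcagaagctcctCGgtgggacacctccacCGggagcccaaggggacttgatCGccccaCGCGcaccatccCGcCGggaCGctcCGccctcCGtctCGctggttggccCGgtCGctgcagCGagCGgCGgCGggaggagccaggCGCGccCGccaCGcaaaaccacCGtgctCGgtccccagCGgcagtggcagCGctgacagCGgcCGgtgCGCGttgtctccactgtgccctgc
Zfp423: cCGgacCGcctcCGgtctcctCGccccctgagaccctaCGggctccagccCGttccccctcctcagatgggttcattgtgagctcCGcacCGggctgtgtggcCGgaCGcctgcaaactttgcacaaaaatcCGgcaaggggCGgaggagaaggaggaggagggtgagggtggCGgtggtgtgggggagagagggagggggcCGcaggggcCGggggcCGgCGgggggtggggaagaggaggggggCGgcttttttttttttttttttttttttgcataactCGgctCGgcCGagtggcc
Hapln3: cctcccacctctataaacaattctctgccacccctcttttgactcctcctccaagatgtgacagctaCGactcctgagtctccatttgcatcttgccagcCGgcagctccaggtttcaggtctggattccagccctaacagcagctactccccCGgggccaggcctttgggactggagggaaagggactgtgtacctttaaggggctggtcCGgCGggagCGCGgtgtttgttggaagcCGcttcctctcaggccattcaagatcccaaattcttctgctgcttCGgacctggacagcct
Adcyap1: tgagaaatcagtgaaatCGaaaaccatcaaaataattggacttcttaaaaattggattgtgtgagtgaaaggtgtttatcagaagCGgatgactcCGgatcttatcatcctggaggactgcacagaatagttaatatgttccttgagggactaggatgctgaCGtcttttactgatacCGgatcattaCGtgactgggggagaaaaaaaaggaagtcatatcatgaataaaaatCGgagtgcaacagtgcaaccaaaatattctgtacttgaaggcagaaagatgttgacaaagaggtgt
Fbln1: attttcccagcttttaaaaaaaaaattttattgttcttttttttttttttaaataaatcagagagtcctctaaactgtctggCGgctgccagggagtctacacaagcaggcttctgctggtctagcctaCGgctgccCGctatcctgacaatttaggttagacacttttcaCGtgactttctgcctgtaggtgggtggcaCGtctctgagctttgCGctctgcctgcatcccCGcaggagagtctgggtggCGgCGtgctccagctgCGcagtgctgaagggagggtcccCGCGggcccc
Fam115c: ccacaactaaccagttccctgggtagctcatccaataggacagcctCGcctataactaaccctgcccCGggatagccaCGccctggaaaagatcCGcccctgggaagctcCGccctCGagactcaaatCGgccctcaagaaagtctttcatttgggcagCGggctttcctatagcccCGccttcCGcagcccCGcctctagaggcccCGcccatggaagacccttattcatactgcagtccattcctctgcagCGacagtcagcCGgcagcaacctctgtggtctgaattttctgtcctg
The Slc1a1 window held 32 CpG at 70.3% GC and the Zfp423 window 21 CpG at 65.7% GC. Their ratios of observed to expected CpG, which set the CpG count against that from the C and G content, were 0.863 and 0.685. Adcyap1 had the fewest CpG and the lowest GC content of the 6, 7 CpG at 39.0% GC, but a ratio of 0.66, close to that of Zfp423. The lowest ratio, 0.376, was that of Hapln3 with 9 CpG. Alone of the 6, its window held the TATA box letters TATAAA on either strand, as did 13.6% of all 32851 promoters. In Hapln3 these letters lie near the upstream end of the window, far from the start site. Promoters were found for 165 of the 227 genes (72.7%). As this is under 80%, a comparison of promoter composition over the whole set would be void, and transcript starts are compared instead further on.

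Detection was lopsided between the groups. Of 14497 genes at 0 in all DMSO libraries, 2335 had a count in at least 1 EPZ011989 library, and the number detected in exactly 1, 2, 3 and 4 of the 4 libraries was 1332, 532, 230 and 241. Of 12987 genes at 0 in all EPZ011989 libraries, 825 had a count in at least 1 DMSO library, and 4 genes (0.0120% of all rows) had counts in all 5. These 4 were Cd93, with 7, 15, 49, 8 and 13 counts in DMSO libraries 1 to 5, Asb11, with 18, 9, 10, 8 and 24 counts, and the unnamed gene models Gm17203 and Gm22079. The 2 rules ask for different numbers of libraries (0 in 5 and above 0 in 4, or the converse), and every library with EPZ011989 had more genes above 0 (17285 to 17924) than any with DMSO (15777 to 16346). Totals did not separate the groups, at 60274140 to 73971068 counts with DMSO and 68048707 to 74651782 with EPZ011989.

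**Figure D1:**
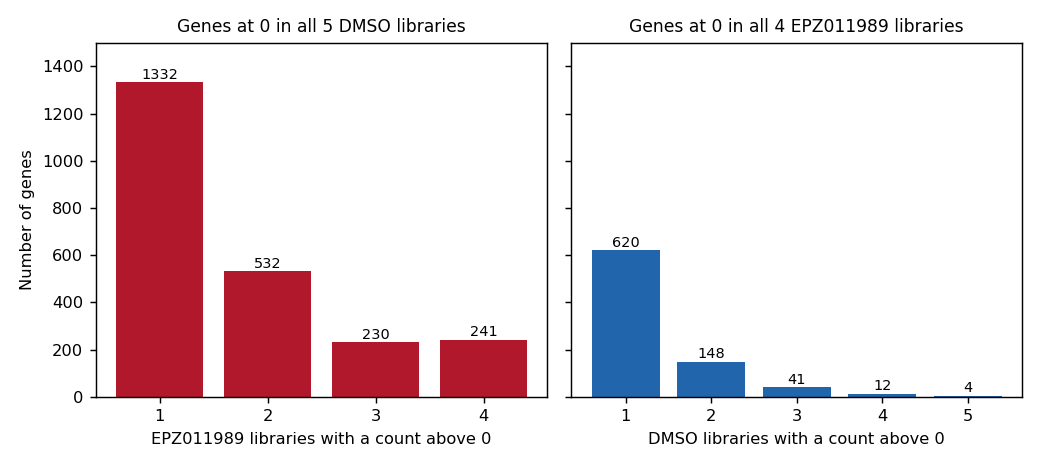
Number of genes (y axis) by the number of libraries of the other group with a count above 0 (x axis), for genes at 0 in all 5 DMSO libraries (left) and at 0 in all 4 EPZ011989 libraries (right). The count falls to 4 genes on the right, while on the left 241 genes were detected in all 4 libraries, more than the 230 detected in 3.

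The genes were switched on to low levels. CPM here uses library sizes scaled by TMM factors. The 227 genes together made up 85.6, 84.2, 86.1 and 90.2 CPM in EPZ011989 libraries 1 to 4, a mean of 86.5 ± 2.6 CPM (SD, n = 4), so the libraries differed little in the sum. The most abundant 3, A2m, Thy1 and Aldh1a3, supplied 14.9% of it and the most abundant 10 supplied 24.5%. Mean levels of single genes ran from 0.0277 to 7.26 CPM with a median of 0.263 CPM; 6 genes reached 1 CPM, 40 lay between 0.5 and 1 CPM, and 83 were under 0.2 CPM. In bulk RNA a gene expressed weakly in all cells and one expressed strongly in few cannot be told apart, nor can fewer cells of a type and less RNA per cell.

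Depth limits what "at 0" means. A floor of 12 counts (3 fragments, if each adds about 4 counts) in a DMSO library corresponds to 0.176 CPM on average, for counting error only. In every EPZ011989 library, 87 of the genes had at least 12 counts, and for these 87 a lower bound of the fold can be given, the EPZ011989 mean over that floor per library. The median bound was at least 2.95-fold higher; 66 genes had a bound of at least 2-fold and 10 of at least 5-fold. For the other 140 no fold is given. Of the 227 genes, 102 passed the low-count filter of the test across all genes and 125 did not. All 102 were called higher, where 16.2% of all 14754 tested genes were; since the rule chose them on this contrast, nothing is read from that count. With upper-quartile in place of TMM factors, 77.9% rather than 67.0% of all calls were higher, and the counts of other genes that rose, given by list below, rest on TMM factors.

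Highest among the genes was A2m (chromosome 6, 121635376 to 121679227, GRCm38), which encodes alpha-2-macroglobulin, a broad protease inhibitor of plasma. A2m stood at 5.45, 7.52, 6.12 and 9.97 CPM in EPZ011989 libraries 1 to 4 (411, 534, 464 and 710 counts), at least 41.3-fold higher than the DMSO floor. Thy1 (chromosome 9, 44043384 to 44048579), a surface glycoprotein of neurons, T cells and fibroblasts, was at 3.45, 2.55, 2.88 and 4.24 CPM. Both genes were highest in library 4, and each library alone lay well above the floor. Set against exon length, Thy1 (1.09 ± 0.25 CPM per kb) and A2m (1.03 ± 0.28 CPM per kb, SD, n = 4) were the top pair and differed by less than the spread between libraries. The short gene Urad, an enzyme of uric acid breakdown, came next at 0.852 ± 0.318 CPM per kb. Per length, the median of the 225 genes with an annotated length was 0.0779 CPM per kb, at percentile 5.3 of the 15262 genes above 0 in every EPZ011989 library (median 4.73 CPM per kb), and the highest, Thy1, reached percentile 28.6.

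**Figure D2:**
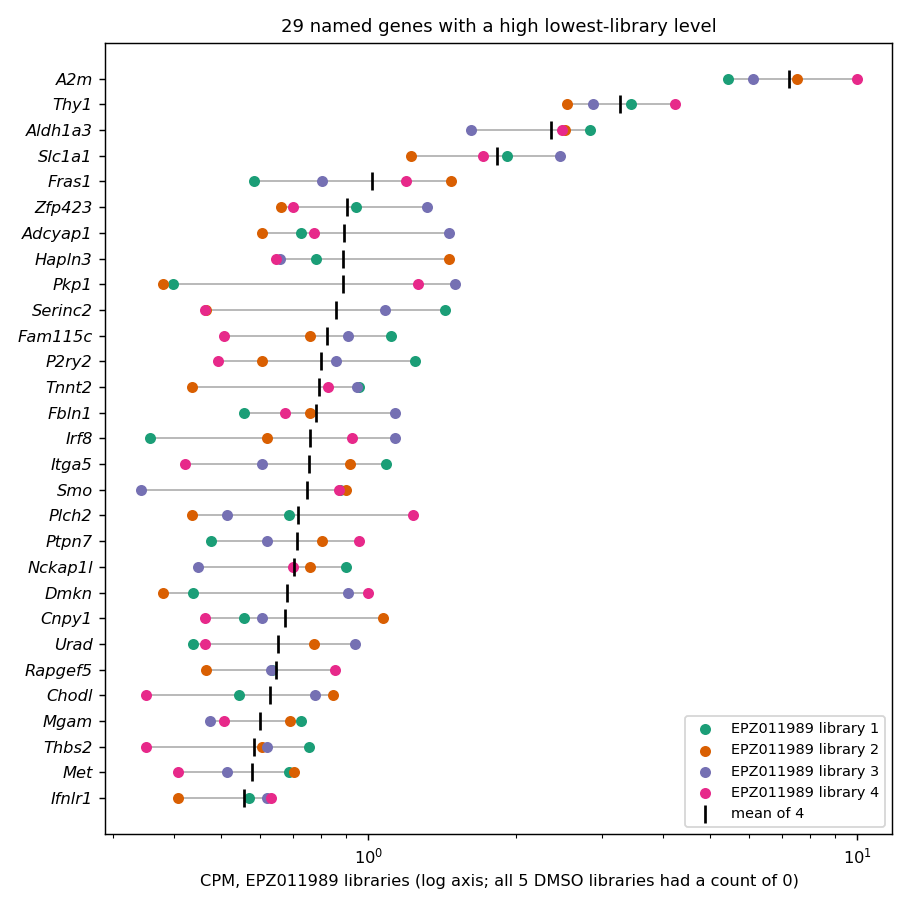
Level in CPM (x axis, log scale) of 29 named genes in each of the 4 EPZ011989 libraries (coloured points) with their mean (black bar), for genes with a high level in their lowest library; all were at 0 in the 5 DMSO libraries. A2m spans 5.45 to 9.97 CPM and Thy1 2.55 to 4.24 CPM, while most of the others lie under 1 CPM and their libraries change order from gene to gene.

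Genes of neurons and of endocrine cells followed. Aldh1a3 (chromosome 7, 66390890 to 66427517), which makes retinoic acid and is known as a marker of beta cells that lose their mature state, was at 2.84, 2.52, 1.62 and 2.48 CPM, at least 13.4-fold higher. Library 3 was lowest for Aldh1a3, and the other 3 lay close together. Adcyap1, whose promoter is printed above and whose product PACAP raises cyclic AMP in islet cells, was at 0.729, 0.605, 1.46 and 0.772 CPM. Slc6a3, the dopamine transporter, was at 0.410 ± 0.091 CPM and Nms, the peptide neuromedin S, at 0.454 ± 0.153 CPM (SD, n = 4). Of the neuronal and synaptic list (213 rows, 35 of them at 0 in all DMSO libraries), 3 genes were among the 227, the others being Rims1, an organiser of vesicle release sites, at 0.210 ± 0.068 CPM and the phosphatase inhibitor Ppp1r1a at 0.154 ± 0.109 CPM. Among the 149 other tested genes of the list 50 rose and 9 fell, with a median log2 fold change of 0.20 against 0.03 for all tested genes. Of all tested genes outside the set 15.6% rose, and of those under 1 CPM in DMSO 25.9%. Genes low in DMSO can pass the low-count filter through the EPZ011989 libraries alone. The shares and medians of this list and those below are in part set by that selection and are a description.

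Among the lists of named genes, that of adhesion and matrix outside the collagens gave the most members. They were 14 of the 111 list genes at 0 in all DMSO libraries (12.6%), against 1.57% of all genes at 0 in DMSO. Of these 14497 genes, however, 7638 are unnamed gene models and clone names, with 0.35% in the set. Other lists also lay above 1.57%, such as receptor kinases (17.65%), zinc finger genes (10.8%) and ligands (9.7%). The G protein-coupled receptor (0.69%) and germ cell (0.64%) lists lay below. After Thy1 came Hapln3 at 0.782, 1.46, 0.659 and 0.646 CPM, and Fbln1 at 0.557, 0.760, 1.13 and 0.674 CPM. Library 2 was highest for Hapln3 and library 3 for Fbln1. Itga5, the integrin alpha chain that binds fibronectin, was at 0.757 ± 0.300 CPM, and Thbs2, the matrix glycoprotein thrombospondin 2, at 0.583 ± 0.169 CPM. Fras1, an epithelial basement membrane protein outside that list, was at 0.583, 1.48, 0.805 and 1.19 CPM. Of the 177 other tested genes of the list, 70 rose and 6 fell (edgeR, adjusted p under 0.05), with a median log2 fold change of 0.56.

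Secreted signals were among the set, as were some genes that receive or carry such signals. Of the ligands and their antagonists, 13 of 134 genes at 0 in DMSO were switched on. Inhba, the activin A subunit, was at 0.530, 0.873, 0.317 and 0.674 CPM. Nrg1, neuregulin 1, was at 0.318, 0.141, 0.356 and 0.407 CPM, and Erbb4, a receptor of neuregulins, at 0.159, 0.197, 0.171 and 0.126 CPM, so Erbb4 lay around the floor of 0.176 CPM in every library and Nrg1 under it in library 2. Dhh, the ligand desert hedgehog, was at 0.294 ± 0.098 CPM, and its exons overlap those of Rhebl1, which was above 0 in every DMSO library. Smo, the membrane protein that carries hedgehog signals into the cell, was at 0.875, 0.901, 0.343 and 0.870 CPM, at least 4.25-fold higher. Smo was low in library 3 alone, where Dhh was highest. Among the 117 other tested ligands and antagonists 56 rose and 5 fell, with a median log2 fold change of 1.17, under the same limit of the low-count filter.

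Among receptor kinases and guidance receptors, 3 of 17 genes at 0 in DMSO were switched on: Met, the receptor for hepatocyte growth factor, at 0.689, 0.704, 0.514 and 0.407 CPM, Kdr, the VEGF receptor, at 0.314 ± 0.194 CPM, and Erbb4. The list is small, and of its 64 other tested genes 31 rose and 5 fell. G protein-coupled receptors contributed 11 of 1605 genes at 0 in DMSO (0.69%), a list that is mostly olfactory and pheromone receptors, of which none was switched on. P2ry2, a receptor for extracellular ATP and UTP, was at 1.25, 0.605, 0.857 and 0.491 CPM. Chrm1, the muscarinic M1 acetylcholine receptor, was at 0.537 ± 0.211 CPM and Ednrb, the endothelin B receptor, at 0.484 ± 0.205 CPM (SD, n = 4). Of the 120 other tested receptors of this list 35 rose and 8 fell.

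Of transporter genes, 7 of 109 at 0 in DMSO were switched on. Slc1a1 (chromosome 19, 28835049 to 28913960), with the most CpG-rich of the printed promoters, was at 1.92, 1.22, 2.47 and 1.71 CPM, at least 10.4-fold higher. Its exons overlap those of the unnamed gene 4430402I18Rik, which was above 0 in every DMSO library. Slc1a2, a second glutamate transporter of that family, was at 0.278, 0.422, 0.106 and 0.379 CPM, so library 3, the highest for Slc1a1, was the lowest for Slc1a2. The manganese exporter gene Slc30a10, at 0.273 ± 0.030 CPM, varied little between libraries. Of ion channel genes, 4 of 81 at 0 in DMSO were switched on, among them Cacna1e, the pore of R-type calcium channels, at 0.563 ± 0.350 CPM, and the sodium channel beta subunit gene Scn2b at 0.512 ± 0.176 CPM. Of the other tested genes 69 of 305 transporters and 28 of 105 channels rose, and 34 and 4 fell; without EPZ011989 replicate 1, 18 channel genes rose.

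Genes of immune cells and of the interferon response made up 13 of 297 at 0 in DMSO. Irf8, a transcription factor of myeloid and B cells, was at 0.358, 0.619, 1.13 and 0.926 CPM. Nckap1l, an actin regulator of blood cells, was at 0.901, 0.760, 0.448 and 0.702 CPM, and the hyaluronan receptor gene Cd44 at 0.521 ± 0.242 CPM. Library 1 was lowest for Irf8 and highest for Nckap1l. Ifnlr1, a receptor chain for type III interferons that the list does not hold, was at 0.570, 0.408, 0.620 and 0.632 CPM, and Ptpn7, a tyrosine phosphatase of blood cells, at 0.713 ± 0.209 CPM. Of the 176 other tested genes of the list 44 rose and 7 fell, with a median log2 fold change of 0.30.

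Muscle and surface epithelium genes were also among the set. Tnnt2, cardiac troponin T, was at 0.954, 0.436, 0.950 and 0.828 CPM, and Myh3, the embryonic myosin heavy chain, at 0.337 ± 0.176 CPM. Myod1, the master regulator of skeletal muscle, had 0.0663, 0.0563, 0.132 and 0.183 CPM, under the floor in all but library 4. Pkp1, a desmosome plaque protein, was at 0.398, 0.380, 1.5 and 1.26 CPM, and Dmkn, a protein of the upper epidermis, at 0.437, 0.380, 0.910 and 0.997 CPM. Both were higher in libraries 3 and 4 than in libraries 1 and 2. Of keratin and epithelial list genes at 0 in DMSO, 5 of 216 were switched on, and of germ cell and testis genes 1 of 157 (Sycp2l, at 0.318 ± 0.062 CPM). Among the other tested genes, 13 of 47 muscle genes, 5 of 20 epithelial genes and 12 of 81 germ cell genes rose, and 0, 0 and 4 fell.

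Transcription factors outside the families left out by symbol were spread over several lists, and some were on none, so no total is given. Zfp423 was at 0.941, 0.662, 1.32 and 0.702 CPM, at least 5.15-fold higher. The list of homeobox, paired and other developmental factors is not complete (Mnx1, Gcm2, Ovol2 and Tead2 of the set are not on it). Of its genes, 5 of 93 genes at 0 in DMSO were switched on: Tfap2b, an AP-2 factor of neural crest, at 0.318, 0.324, 0.251 and 0.898 CPM, Irx6 of the Iroquois family at 0.394 ± 0.125 CPM, and Pou4f3, Pax1 and Snai1, the last of these with 8, 3, 8 and 11 counts. Tfap2b was high in library 4 alone. Of 25 basic helix-loop-helix genes at 0 in DMSO, 2 were switched on, Nhlh2 at 0.192 ± 0.084 CPM and Myod1. Of other tested genes of these lists 41 of 109 developmental factors and 11 of 23 basic helix-loop-helix genes rose, and 2 and 0 fell. The zinc finger and BTB list, which holds Zfp423 and 3 more of the set among 37 genes at 0 in DMSO, differed: of its 395 other tested genes 25 rose, a smaller share than the 15.6% of all tested genes outside the set, and 7 fell.

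The rest of the named genes with a high lowest library had diverse roles. Serinc2 was at 1.43, 0.464, 1.08 and 0.463 CPM, and Fam115c at 1.11, 0.760, 0.910 and 0.505 CPM. Plch2, a phospholipase C, was at 0.719 ± 0.360 CPM, Rapgef5, an activator of Rap GTPases, at 0.648 ± 0.161 CPM, and Mgam, the brush border enzyme maltase-glucoamylase, at 0.60 ± 0.13 CPM. Cnpy1 and Chodl were at 0.674 ± 0.270 and 0.629 ± 0.226 CPM (SD, n = 4). Over all 227 genes, the highest value fell in libraries 1 to 4 for 60, 55, 56 and 56 genes. The median coefficient of variation between EPZ011989 libraries was 35.9% for the 87 genes with at least 12 counts in each.

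Almost all of the switched-on genes encode proteins. Of the 225 found by identifier in GENCODE M21, 210 were protein-coding, 6 were long intergenic non-coding RNAs and 5 antisense RNAs; 27 of the 227 carried gene model or clone names. Exons of 54 genes overlap those of another annotated gene. For 7 of them that neighbour had counts in every DMSO library, so those reads, if shared, were not assigned to the switched-on gene there. No source used here says whether the counting used strand, so an antisense RNA and its partner cannot be told apart. Every chromosome except Y held at least 1 of these genes, with 29 on chromosome 1 and 26 on chromosome 2.

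Some of the genes lie near each other. In 14 pairs, 2 genes next to each other within the set had no more than 100 kb between them, and 4 stretches linked 3 genes this way. Genes outside the set can lie between them. No like count was made for other genes, so nothing is read from these numbers. On chromosome 1 (135818598 to 135919207), Lad1, a basement membrane anchor protein (0.113 ± 0.056 CPM), Tnnt2 and Pkp1 were switched on, while Phlda3 and Tnni1 on one side, at 0 in DMSO, were at means of 0.0761 and 0.0472 CPM with EPZ011989, each at 0 in libraries 1 and 2. Igfn1 on the other side had counts in 1 DMSO library and in EPZ011989 libraries 1 and 4. On chromosome X (133891068 to 133981812), the tetraspanin gene Tspan6, the secreted protein gene Srpx2 and the granule-binding protein gene Sytl4 were at 0.574 ± 0.274, 0.447 ± 0.358 and 0.154 ± 0.060 CPM. On chromosome 2 (102550012 to 102901665), Pamr1, Slc1a2 and Cd44 were at 0.128 ± 0.060, 0.296 ± 0.141 and 0.521 ± 0.242 CPM. The stretch on chromosome 15 (103344286 to 103538003) ran from Itga5 over Nckap1l to Ppp1r1a. Between the last pair lies Pde1b, a phosphodiesterase gene, which rose from 0.0719 ± 0.050 to 2.07 ± 0.67 CPM (log2 fold change 4.81, adjusted p = 1.25e-04, edgeR quasi-likelihood test). Gtsf1 and BC048502, between Itga5 and Nckap1l, were at 0 in all 9 libraries, and Copz1, outside the stretch but within 50 kb of it, at 139 ± 12 and 142 ± 28 CPM, did not pass (adjusted p = 0.928, edgeR). Silent and switched-on genes were thus interleaved in that stretch.

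**Figure D3:**
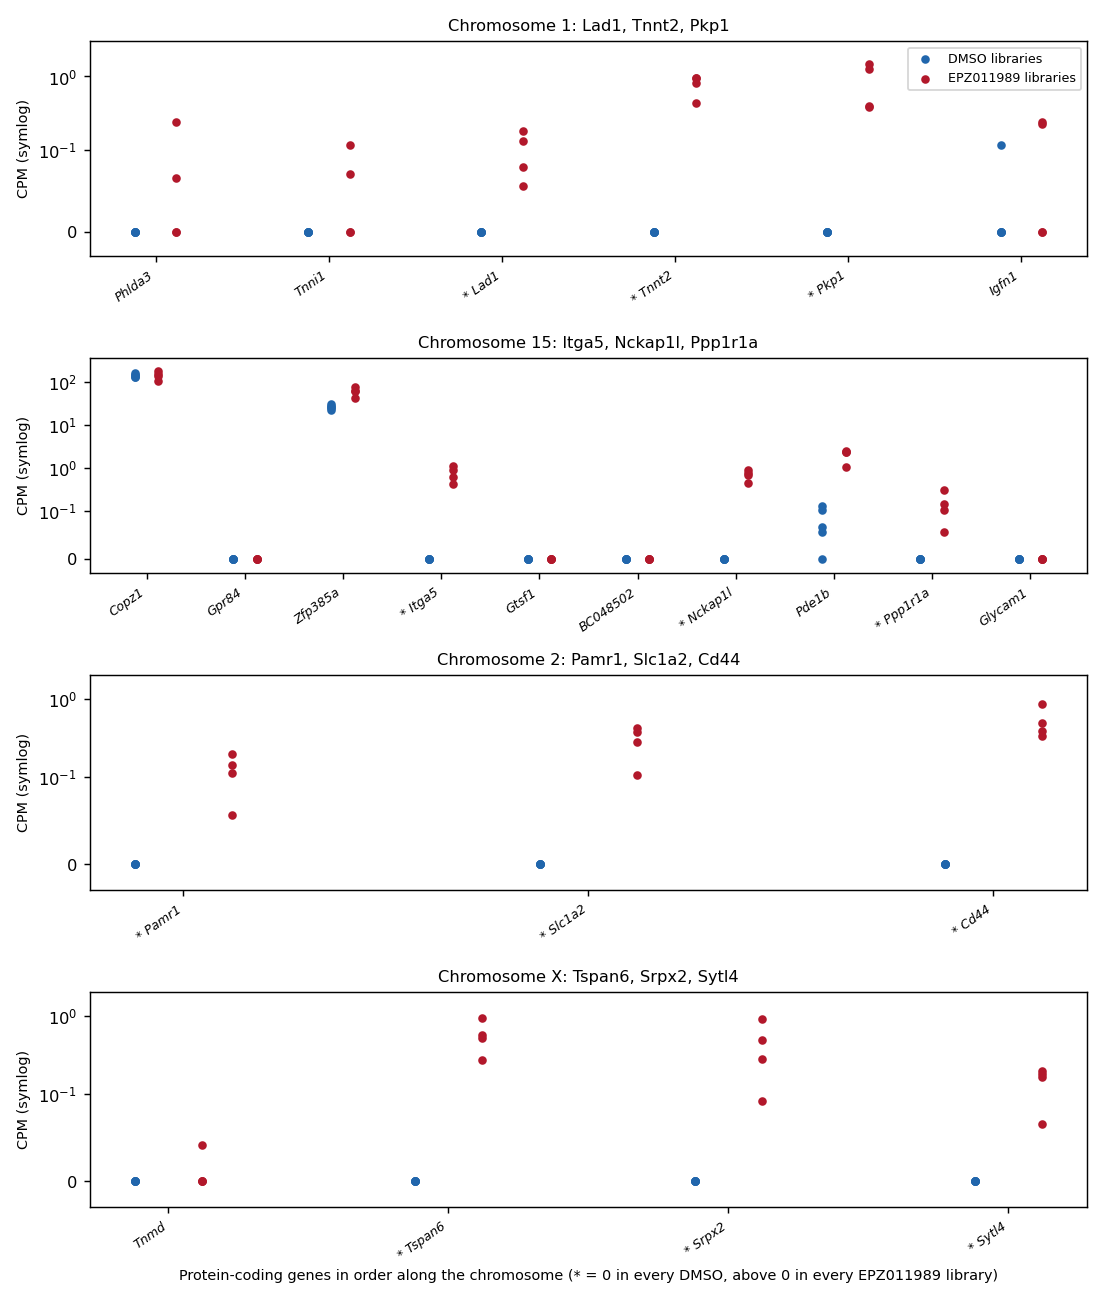
CPM in single libraries (y axis, linear near 0 and logarithmic above 0.1) of the protein-coding genes in 4 stretches that each hold 3 switched-on genes. Genes are in chromosome order with a margin of 50 kb. Stars mark the switched-on genes, blue points DMSO libraries (n = 5) and red points EPZ011989 libraries (n = 4). On chromosome 15, Gpr84, Gtsf1, BC048502 and Glycam1 stay at 0 in all 9 libraries, while Pde1b between starred genes moves from 0.0719 to 2.07 CPM.

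The rule used no values of neighbouring genes. For 225 switched-on genes a nearest protein-coding gene could be named, with a median gap of 11187 bases between gene bodies; for 12 it was itself one of the set. Of the 213 others, 64 neighbours were at 0 in all DMSO libraries and 120 were tested. Of these 120, 37 rose (30.8%, where 16.2% of all tested genes rose) and 11 fell (9.2%, where 7.96% of all tested genes fell; without EPZ011989 replicate 2, 19 fell, 15.7% where 15.9% of all did), and their median log2 fold change was 0.16 against 0.03 for all tested genes. Pde1b is the nearest gene of both Nckap1l and Ppp1r1a and so counts under each; 36 of 119 different genes rose. Leaving out neighbours whose bodies overlap the switched-on gene, 30 of 104 rose (28.8%). The share that rose lay above that of all tested genes in the same fit under each of the 17 alternative fits.

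Neighbours that rose were often low in DMSO themselves. Of the 31 tested neighbours under 1 CPM in DMSO, 21 rose (67.7%), while 25.9% of all tested genes under 1 CPM in DMSO, with only the set itself left out, did. Genes this low in DMSO can pass the low-count filter through the EPZ011989 libraries alone, so both shares are a description of genes in part selected for being higher there. Mmp2, a matrix protease whose gene is the nearest to Irx6 at 146335 bases, rose from 0.0249 ± 0.0557 to 2.68 ± 0.32 CPM (adjusted p = 1.34e-04, edgeR), and P2ry6, a UDP receptor beside P2ry2, from 0.0383 ± 0.0857 to 0.620 ± 0.189 CPM (adjusted p = 0.0200, edgeR). Mfng, a modifier of Notch next to Card10, rose from 0.213 ± 0.142 to 3.15 ± 0.78 CPM. Of the 37 neighbours that rose, 21 were thus under 1 CPM in DMSO, so the share of 30.8% rests in large part on such genes. No share was taken for better expressed neighbours. Some of them rose too, such as Antxr1, an anthrax toxin receptor next to Gkn1, from 5.47 ± 0.52 to 26.6 ± 2.5 CPM (adjusted p = 3.29e-07, edgeR). Others did not pass, such as Acan, the cartilage proteoglycan gene 3 bases from Hapln3, at 1.96 ± 0.52 and 1.68 ± 0.67 CPM (adjusted p = 0.640, edgeR).

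**Figure D4:**
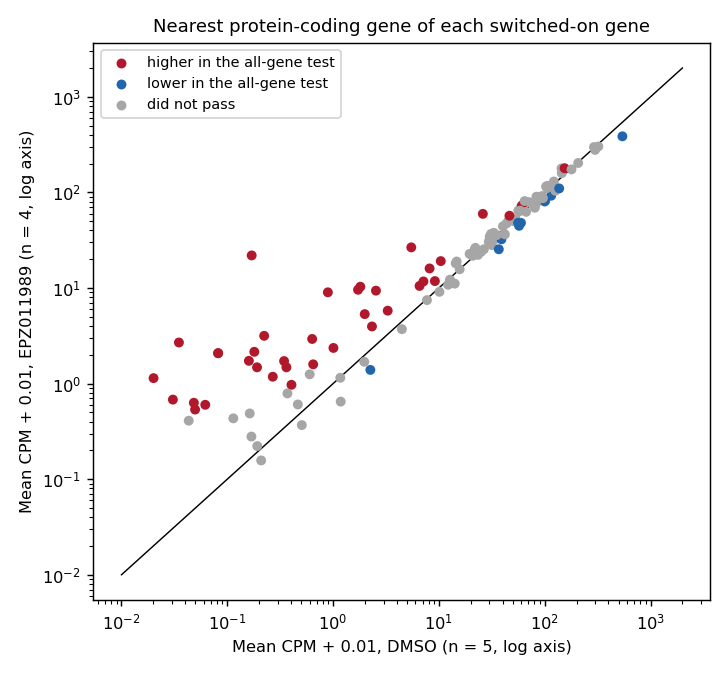
Mean CPM + 0.01 with EPZ011989 (y axis, n = 4) against DMSO (x axis, n = 5), both on log axes, for the 120 tested nearest protein-coding genes of the switched-on genes, coloured by the edgeR test across all genes. Points that rose (red, 37) gather above the line of equality at low DMSO levels, and most neighbours above 10 CPM lie on it.

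CpG content at the start of the transcript was not used by the rule either. It was read from the first 300 bases of the longest GENCODE M21 transcript, available for all 210 protein-coding genes of the set, and a start was called CpG-dense at an observed to expected ratio of at least 0.6 and at least 50% GC. Of the 210, 84 were CpG-dense (40.0%), near and below the 44.9% of all 21099 protein-coding genes with such a transcript. The share was 24.3% among 1397 protein-coding genes at 0 in DMSO and detected in 1 to 3 EPZ011989 libraries, 454 of 4525 among those at 0 in all 9 libraries, and 63.8% among 12309 above 0 in every DMSO library. The median ratio had the same order, at 0.497 for the set and 0.383, 0.211 and 0.734 for the other 3 classes. These shares are given as a description with no test; the classes also differ in level, and the part of level was not tested.

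**Figure D5:**
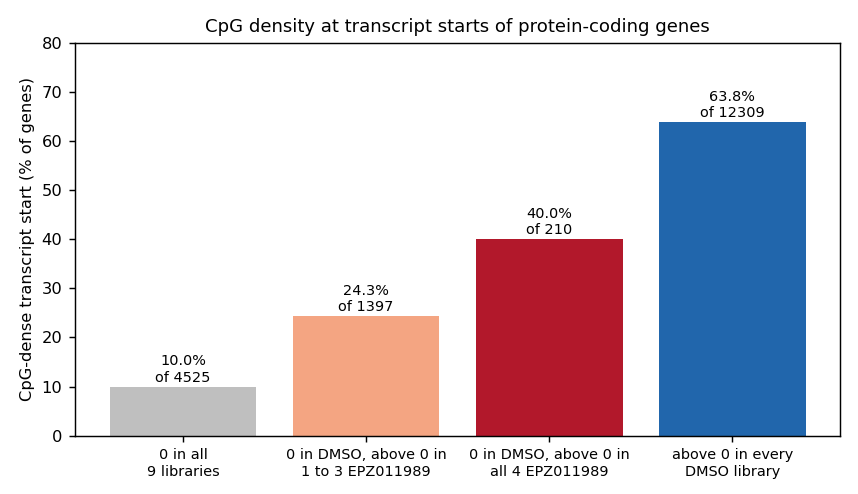
Share of protein-coding genes whose first 300 transcript bases are CpG-dense (y axis, percent), by class of detection (x axis), with the number of genes in each class. The switched-on genes (40.0% of 210) lie between genes at 0 in all 9 libraries (454 of 4525) and genes above 0 in every DMSO library (63.8%).

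Markers of other cell types that the set touches were examined as whole lists. Of 12 fibroblast and stellate cell markers only Thy1 belongs to the set; 4 of 6 tested rose, 0 fell, and the list summed to 7.40 to 9.92 CPM in DMSO libraries and 31.6 to 42.6 CPM with EPZ011989. Of 10 endothelial markers Kdr and Cdh5 belong to it; 3 of 6 tested rose, and the sum was 1.09 to 2.06 CPM and 3.83 to 4.89 CPM. Of 8 skeletal muscle markers Myod1 and Myh3 belong to it, and 0 of 2 tested rose. Their sum was 0.796 to 1.15 CPM and 2.41 to 3.56 CPM, and Myog, a defining factor of muscle cells, was at 0 in all 9 libraries. The fibroblast, endothelial and muscle sums include the genes of the set (Thy1 at a mean of 3.28 CPM). The rule fixed the rise of these genes from 0, so that part of each sum is no result. Thy1 and Kdr are also among the tested markers that rose, and their calls are no result either. Of all tested genes outside the set 15.6% rose. Macrophage markers (5.77 to 8.60 and 9.12 to 12.3 CPM, 1 of 5 tested rose) and lymphocyte markers (5.03 to 8.57 and 4.14 to 7.02 CPM, 0 of 2 tested rose, Cd8a and Ms4a1 at 0) held no gene of the set. The part of such markers in the levels of the set was not tested.

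At the edges of the rule, 17 genes had a lowest count of 1 to 3 with EPZ011989. Mbnl3 had 6, 2, 11 and 5 counts in libraries 1 to 4, and Tead2, a partner of YAP, 47, 3, 4 and 27. Just outside it, 242 genes were above 0 in all EPZ011989 libraries and in 1 DMSO library. Adora1, the adenosine A1 receptor, had 4 counts in DMSO library 3 and 288, 228, 303 and 323 counts with EPZ011989, and Mmp2 had 9 counts in 1 DMSO library and 181 to 223 with EPZ011989. On the other side, Scn7a had 41, 61, 16 and 0 counts and Thbs1 47, 30, 16 and 0 counts, both at 0 in all DMSO libraries. Membership of genes near these edges thus rests on a few counts in 1 library.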

How the data were processed

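Raw counts per gene (33212 rows, 9 libraries) and a normalized table on a linear signal scale were deposited; by its values, the signal is the count divided by 1 factor per library, and it served only to repeat the rule. Build mm10 and the tools HISAT2, StringTie and DESeq2 appear in the submitters' processing notes, without roles or versions; for annotation and strand, nothing is given in the sources used here. Many fragments appear to add about 4 counts, so counts are not independent reads. Libraries were grouped by the treatment in their titles. The test across all genes used filterByExpr, TMM factors and edgeR 4.0.16 with its quasi-likelihood test (R 4.3.3, treatment only, Benjamini-Hochberg over 14754 genes, adjusted p under 0.05, two-sided). It was tried on simulated counts without steps of 4, in which only genes at 1 CPM or more in DMSO were changed. That trial does not cover genes as low in DMSO as the set. The spread behind the p-values of the test is that between libraries and may be technical. Every replicate pair differed by more than sampling noise (chi-square over degrees of freedom at least 4.2, counts divided by 4).

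The members, gene lists and naming rule were chosen with earlier results of these data known. Named genes were the 30 with the highest lowest-library CPM, leaving out gene models, and up to 4 of each list by mean CPM, of which some are not reported here; other genes were named after their values were seen (neighbours, stretches, edges of the rule). Positions, exon lengths and transcripts come from GENCODE M21 (GRCm38, the assembly of mm10), promoters from RefSeq (GRCm38.p6), matched by symbol or synonym and position. Transcript starts replaced promoters after the data were seen. Alternatives were other scaling factors, filters, DESeq2 1.42.0, limma-voom (limma 3.58.1), a replicate block, other count limits and leaving out each library. Floors cover counting error only.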

Additional observations from a re-analysis of the deposited data

Results flagged for a closer look

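In 67 sets of 4 EPZ011989 values (66 named genes and the summed level), 6 had a library set apart from the other 3. Chance gives about 1 in 20 for normally distributed values. Low counts in steps of about 4 need not follow that rate, so nothing is read from the number. The Hapln3 value in library 2 was high, at 1.46 CPM with the next at 0.782 CPM. Tfap2b was high in library 4, at 0.898 CPM with the next at 0.324 CPM, and Zbtb7c in library 1, at 0.398 CPM with the next at 0.296 CPM. Smo was low in library 3, at 0.343 CPM with the next at 0.870 CPM, Sycp2l in library 1, at 0.225 CPM with the next at 0.343 CPM, and Nms in library 2, at 0.225 CPM with the next at 0.517 CPM. The 6 fell in libraries 1 (2 genes), 2 (2 genes), 3 (1 gene) and 4 (1 gene), and the summed level was not among them.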

How the results depend on the processing

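The number of switched-on genes depends on its limits. In place of 227 it was 87 with at least 12 counts in every EPZ011989 library, 450 when 3 of 4 EPZ011989 libraries sufficed, and 610 when DMSO counts of up to 4 were allowed. At least 4 counts gave 210, the rule on normalized values 227, and leaving out 1 library 265 to 290, as a rule over fewer libraries must give no fewer. The median level (0.263 CPM) was 0.254 to 0.263 CPM when an EPZ011989 library was left out, and the summed level (86.5 CPM) was 73.6 CPM without the 3 most abundant genes and 85.3 to 87.3 CPM without a library. Of the set, 38.8% of 224 genes of all kinds had CpG-dense transcript starts, and 23.2% with a ratio of at least 0.75 and 55% GC, where all genes gave 38.9% and 25.3%; promoter shares and their alternatives are not reported, since too few genes had a promoter. Across all genes, 2388 rose and 1174 fell; with upper-quartile factors 2735 rose and 776 fell. Leaving out a library gave 1861 to 2939 genes higher and 781 to 2377 lower, the extremes being EPZ011989 replicate 2 (2939 and 2377), replicate 1 (1861 higher) and replicate 3 (781 lower). With the replicate number as a block 1550 rose and 471 fell, and 57 of the 102 tested genes of the set were called, a count that the choice of the set bears on. Same-numbered libraries did not deviate together (r = 0.015, -0.099, -0.044 and 0.030), where differently numbered ones gave r from -0.232 to 0.211. Such values cannot decide whether equal numbers mark paired samples, and the labels do not say. Of the nearest genes 37 rose, 25 with the block, 28 to 46 without 1 library and 29 to 40 in the other fits; 11 fell, 3 with the block (2.5%, where 3.2% of all tested genes fell), 7 to 19 without 1 library and 8 to 14 in the other fits. The alternatives for nearest genes, lists and transcript starts were chosen after seeing the data. With the block the other genes that rose numbered 24 (developmental factors), 13 (zinc finger), 15 (channels), 25 (immune), 5 (germ cell) and 7 (muscle), and 8 muscle genes rose among the fewer tested at 1 CPM in 4 libraries.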
